A study of Mus musculus with 9 samples.

Results

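Transcripts of the mitochondrial ribosomal proteins were measured by RNA sequencing in activated mouse regulatory T cells (Tregs) that had lost or kept Ezh2. The set holds the protein-coding genes of the count table whose mouse symbol starts with Mrpl or Mrps followed by a digit, 77 of 43432 gene identifiers. Of these, 48 carry the name of the large subunit (Mrpl) and 29 that of the small subunit (Mrps). Another 5 genes with such symbols are pseudogenes and were not counted as members, and Mrpl33, whose identifier in the annotation used had no match in the table, is not analysed here. The 4 Ezh2-deficient libraries came from mice of the genotype Foxp3-Cre-GFP, R26-LSL-RFP and Ezh2-fl/fl. The 5 WT libraries carried the same Foxp3-Cre-GFP and R26-LSL-RFP alleles with Ezh2-+/+, except WT replicate 1, which was Ezh2-fl/+. All mice were C57BL/6, and Cre was driven by Foxp3 in both groups, so that floxed alleles are deleted in cells that have switched on Foxp3. CD62L-high Tregs were sorted, stimulated with beads that carry antibodies to CD3 and CD28, grown with 2000 U/ml interleukin-2 and compared on day 4.

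The mitochondrial ribosome translates the few messenger RNAs that mitochondrial DNA encodes, which specify core subunits of the respiratory chain and of the ATP synthase. Its 2 ribosomal RNAs are transcribed inside the organelle, whereas its proteins are encoded in the nucleus, made in the cytosol, imported and assembled onto those RNAs. Activated T cells enlarge their mitochondria as they grow, and Tregs depend on respiration for their suppressive function. The enzyme Ezh2 does the catalysis in a Polycomb repressive complex that methylates histone H3 and keeps genes silent.

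Mitochondrial ribosomal protein transcripts were lower in Ezh2-deficient Tregs than in WT Tregs, by a small amount spread over both subunits. Of the 76 members with enough counts to be tested, 23 (30.3%) fell and 0 rose by edgeR's quasi-likelihood test, with p adjusted by Benjamini-Hochberg over all genes and a threshold of 0.05. Among all 13685 genes tested, 8.8% were called lower and 13.1% were called higher. The log2 fold change, Ezh2-deficient over WT, was below 0 for 73 of the 76 members, and the positive ones were Mrpl48, Mrpl23 and Mrps21, none of which passed the test. The members' median log2 fold change was -0.23, a level 1.17-fold lower, and single members lay between -0.76 and 0.13. Over all tested genes the median was 0.003 and the quartiles were -0.22 and 0.27. All Ezh2-deficient libraries lay below all WT libraries for 19 members (25%), against 8.69% of all tested genes, and none lay above. At an unadjusted p under 0.05, 36 members were lower and 0 higher, and 17.3% of all tested genes were lower. The adjusted counts were 33 lower and 0 higher in DESeq2 (13.6% of all genes lower) and 20 lower and 0 higher in limma-voom (8.5% lower). The count of members that fell depended on the libraries kept, as did the share of all genes called lower. It was 15 without Ezh2-deficient replicate 1 (6.24% of all genes lower), 15 without Ezh2-deficient replicate 3 (5.72%), 9 without the library with the most Cd8a in each group (4.85%) and 8 without WT replicates 3 and 4 (4.57%), with medians that stayed below 0 in each. Without WT replicate 1, the Ezh2-fl/+ sample, the count was 19 (8.92% of all genes lower), with medians of -0.27 (large subunit) and -0.21 (small subunit).

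**Figure D1:**
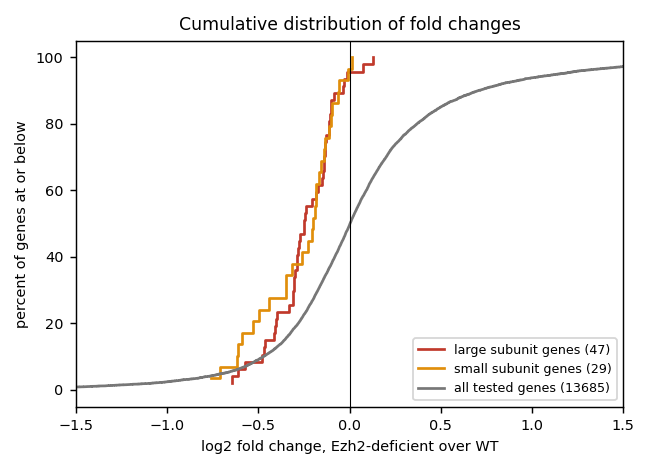
Cumulative percent of genes (vertical axis) at or below each log2 fold change, Ezh2-deficient over WT (horizontal axis), for the 47 large subunit genes, the 29 small subunit genes and all 13685 tested genes. The curves of both subunits lie left of the curve of all genes over nearly their whole range, with medians of -0.25 and -0.20 against 0.003, but the member curves stop at -0.76 where the curve of all genes goes on to larger falls.

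The libraries carried 33718125 to 62201921 counts in the Ezh2-deficient group and 32469450 to 59796319 in the WT group. Ezh2 averaged 161 ± 6.49 CPM in the Ezh2-deficient and 296 ± 50.5 CPM in WT libraries (SD, n = 4 and n = 5; CPM are counts scaled to the size and composition of the library), with no overlap. Transcripts that lack only the floxed exons still count towards it. The 6 Treg markers summed to 9475 to 10638 CPM in the Ezh2-deficient libraries and 8675 to 9475.5 CPM in the WT libraries, and overlapped. Foxp3 itself was at 1648 to 1968 CPM in the Ezh2-deficient and 1293 to 1542 CPM in the WT libraries, 23.1% higher on average and without overlap. Markers of other cells differed between libraries: Cd8a spanned 0.361 to 79.9 CPM in Ezh2-deficient and 1.98 to 97.6 CPM in WT libraries. The 4 myeloid markers summed to 20.1 to 27.7 CPM in Ezh2-deficient libraries against 8.87 to 17.3 CPM in WT libraries, without overlap. Lyz2 and Csf1r were under 1 CPM everywhere, so Itgam and Adgre1 carried most of that sum. The 2 erythroid markers summed to 2.50 to 10.9 CPM in Ezh2-deficient and 0.582 to 3.01 CPM in WT libraries, and overlapped. The 3 B cell markers summed to 0.571 to 6.42 CPM in Ezh2-deficient and 5.03 to 7.72 CPM in WT libraries. The part of Foxp3 and of these cells in the result was not tested. A score of 22 hypoxia response genes was above 0 in Ezh2-deficient replicates 1 and 4 and WT replicates 1, 2 and 4, and below 0 in the other 4 libraries. Within the high-score libraries 8 of the 76 members fell (4.98% of all genes did), with subunit medians of -0.23 and -0.19, and within the low-score libraries, 2 of each group, 0 did in edgeR (1.06% of all genes; 24 members at an unadjusted p under 0.05, all lower), with medians of -0.33 and -0.34. In bulk RNA these levels are shares of the library, so fewer cells with a transcript and less of it per cell cannot be told apart.

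Summed over the members, both subunits were lower in each Ezh2-deficient library than in each WT library. The large subunit genes summed to 1431, 1545, 1447 and 1350.5 CPM in Ezh2-deficient replicates 1 to 4 and to 1647, 1546, 1864, 1695 and 1683 CPM in WT replicates 1 to 5. The gap between the groups was narrow there, since Ezh2-deficient replicate 2 and WT replicate 2 were almost level. The small subunit genes summed to 741, 761, 728 and 710.2 CPM in the Ezh2-deficient replicates and to 841, 803, 942, 868 and 872 CPM in the WT replicates. WT replicate 3 had the highest sum for both subunits. The group means were 1443 ± 79.8 CPM against 1687 ± 115 CPM for the large subunit, 14.4% lower, and 735 ± 21.1 CPM against 865 ± 50.8 CPM for the small subunit, 15.1% lower (SD, n = 4 and n = 5). The ratio of the large to the small sum was 1.96 ± 0.0575 in Ezh2-deficient and 1.95 ± 0.0223 in WT libraries, and the groups overlapped. No test is given for these sums, because the members were chosen with earlier results of these data known.

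**Figure D2:**
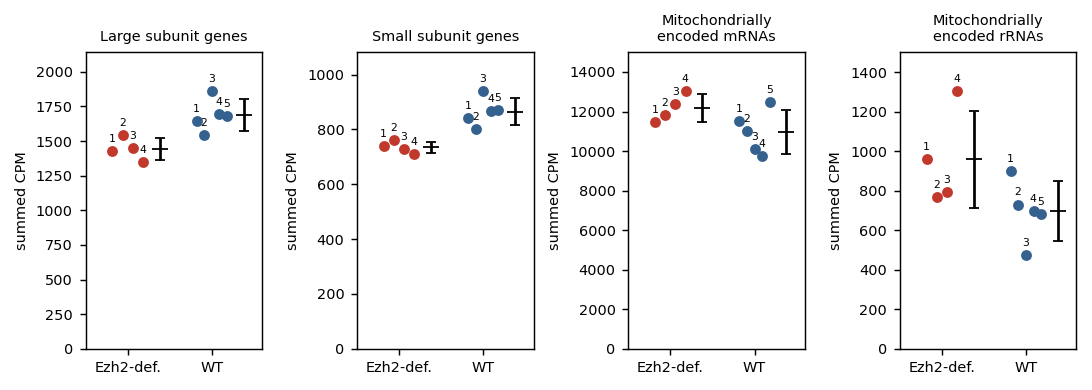
Summed CPM (vertical axes, from 0) in each library for the large subunit genes, the small subunit genes, the mitochondrially encoded mRNAs and the mitochondrially encoded rRNAs. Points are libraries, numbered by replicate, and bars are means ± SD. The Ezh2-deficient libraries sit below the WT libraries in the panels of the subunits and overlap them in the panels of mitochondrially encoded RNA.

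Library by library, 68, 63, 71 and 67 of the 76 members lay below the WT mean in Ezh2-deficient replicates 1 to 4. In the WT group, replicates 1 to 5 had 51, 72, 11, 35 and 39 members below that mean. WT replicate 2 had more low members than any Ezh2-deficient library. Its median log2 ratio to the WT mean was -0.14, and those of the Ezh2-deficient replicates were -0.24, -0.14, -0.27 and -0.32. WT replicate 3 was the highest, at 0.12. For the large subunit alone these medians overlapped between the groups, at -0.135 in WT replicate 2 and -0.127 in Ezh2-deficient replicate 2. For the small subunit alone they did not overlap. With the group means taken out, the members' log2 levels correlated with each other by a median Pearson r of 0.26 over the 9 libraries, and 68.9% of the 2850 pairs were positive; the pairs share libraries and depth.

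**Figure D3:**
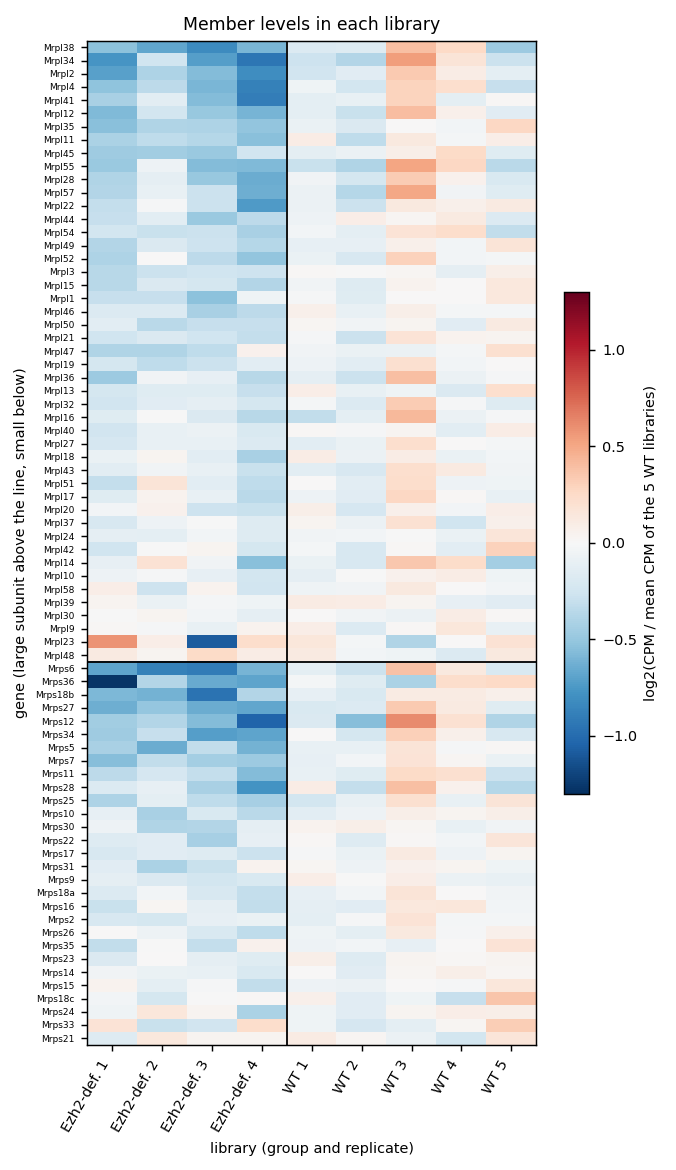
The log2 ratio of CPM to the mean of the 5 WT libraries (colour) for each tested member (rows; large subunit above the line, small below, ordered by fold change) in each library (columns; Ezh2-deficient left, WT right). Blue dominates the Ezh2-deficient columns in the upper rows of both blocks, WT replicate 3 is mostly red and WT replicate 2 mostly pale blue.

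The promoters of a few members are shown as examples. RefSeq (GRCm38.p6) gave 74 promoters for 68 of the 77 members, each with 250 bases before and 50 after a transcript start. They were searched on both strands for the letters GCGCATGCG (the core of an NRF1 site), CCGGAAG (an ETS site, bound by the NRF2 or GABP complex), AAGATGGCG (YY1), CACGTG (the E-box of Myc and Max) and CCGCCC (an SP site). NRF1, GABP and YY1 are known as activators of nuclear genes for mitochondrial proteins. Each sequence runs 5′ to 3′ on the strand of its gene, and capitals mark the first 4 of these motifs; overlaps were found only between the ETS and SP letters, in 2 promoters. The promoters are those of Mrps18b at chr17:35916391-35916690, minus strand, with NRF1 and ETS letters, Mrps27 at chr13:99344536-99344835, plus strand, with ETS and YY1 letters, Mrpl2 at chr17:46645971-46646270, plus strand, with an E-box, and Mrps11 at chr7:78782881-78783180, plus strand, with YY1 letters, the start of which faces that of Mrpl46.
Mrps18b: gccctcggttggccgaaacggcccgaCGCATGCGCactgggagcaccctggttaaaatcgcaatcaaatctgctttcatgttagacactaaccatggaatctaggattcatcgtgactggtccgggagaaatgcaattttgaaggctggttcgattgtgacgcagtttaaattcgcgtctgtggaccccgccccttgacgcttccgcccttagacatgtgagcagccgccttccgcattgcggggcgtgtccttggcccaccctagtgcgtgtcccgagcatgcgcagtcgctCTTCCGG
Mrps27: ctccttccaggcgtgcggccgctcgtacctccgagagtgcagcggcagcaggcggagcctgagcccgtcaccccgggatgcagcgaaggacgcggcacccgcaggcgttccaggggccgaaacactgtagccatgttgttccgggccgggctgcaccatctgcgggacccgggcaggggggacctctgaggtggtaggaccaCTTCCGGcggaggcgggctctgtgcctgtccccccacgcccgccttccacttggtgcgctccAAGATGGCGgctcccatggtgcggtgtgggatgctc
Mrpl2: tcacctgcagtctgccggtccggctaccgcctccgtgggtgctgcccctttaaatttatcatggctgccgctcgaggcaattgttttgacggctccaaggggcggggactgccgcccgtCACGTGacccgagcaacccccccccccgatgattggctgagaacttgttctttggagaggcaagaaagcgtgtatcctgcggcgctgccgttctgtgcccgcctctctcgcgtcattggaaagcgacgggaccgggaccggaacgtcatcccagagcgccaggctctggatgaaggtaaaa
Mrps11: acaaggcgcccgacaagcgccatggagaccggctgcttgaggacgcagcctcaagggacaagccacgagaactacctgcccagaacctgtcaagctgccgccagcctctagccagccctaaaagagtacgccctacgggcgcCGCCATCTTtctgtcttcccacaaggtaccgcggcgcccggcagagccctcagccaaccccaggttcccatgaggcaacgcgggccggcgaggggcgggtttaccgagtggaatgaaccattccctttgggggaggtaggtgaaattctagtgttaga

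At least 1 of the first 4 motifs stood in 39 of the 74 member promoters. The NRF1 letters were in 9.46% of them, against 3.55% of the promoters of all tested genes and 1.75% of all 32851 promoters. ETS letters were in 33.8% of member promoters, against 17.5% of those of tested genes and 8.86% of all. YY1 letters were in 10.8%, against 2.95% and 1.40%. The E-box, at 9.46% against 9.77% and 7.15%, and the SP letters, at 52.7% against 61.6% and 35.7%, were not more frequent in members than in tested genes. Within the set, ETS letters stood in 19.0% of the 21 promoters of members that fell and in 38.5% of the 52 promoters of tested members that did not pass, and the E-box in 14.3% and 7.69%. NRF1 letters stood in 4.76% and 11.5%, the 1 promoter among the 21 being that of Mrps18b, YY1 letters in 9.52% and 11.5%, and SP letters in 47.6% and 55.8%. The 3 E-box promoters among the 21 all belong to Mrpl2 and overlap, so that the same E-box was counted 3 times. The 4 promoters printed above all hold at least 1 of the first 4 motifs, and 1 of them, that of Mrps11, belongs to a member that did not pass. The promoters of Mrpl11, Mrpl12, Mrpl28, Mrpl41, Mrpl44, Mrpl45 and Mrpl50, which fell, held none of the motifs searched. All of these are matches of letters, given as a description with no test.

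Among the 47 large subunit genes tested, 16 (34.0%) fell, 45 were negative and the median log2 fold change was -0.25. The catalytic core, where peptide bonds are formed, held 2 genes that fell among its 4. Mrpl2 (ENSMUSG00000002767; GRCm38 chr17:46646229-46650139), whose bacterial counterpart binds the ribosomal RNA next to the catalytic centre, was at 17.6, 21.7, 19.3 and 16.4 CPM in Ezh2-deficient replicates 1 to 4 and at 24.2, 25.9, 36.2, 30.7 and 26.2 CPM in WT replicates 1 to 5. All Ezh2-deficient libraries lay below all WT libraries, and WT replicate 3 was the highest. The log2 fold change was -0.61 (SE 0.13, adjusted p = 0.00787), a 1.53-fold lower level. Mrpl3 (ENSMUSG00000032563; chr9:105053239-105079888), a core protein mutated in human mitochondrial disease, was at 42.3, 44.7, 45.3 and 45.0 CPM in the Ezh2-deficient replicates and at 54.7, 53.9, 55.2, 50.1 and 57.2 CPM in the WT replicates. Its groups were tight and did not overlap, so that a smaller change, -0.29 (SE 0.07, adjusted p = 0.0137), passed the test. The other core genes, Mrpl16 and Mrpl27, had log2 fold changes of -0.17 and -0.15 and did not pass.

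Around the exit tunnel, through which the new chain leaves, 2 of 7 genes fell and the median was -0.25. Mrpl45 (ENSMUSG00000018882; chr11:97315716-97329920), which anchors the ribosome to the inner membrane, was at 41.8, 42.1, 41.2 and 48.6 CPM in Ezh2-deficient cells and at 52.7, 54.8, 60.6, 68.4 and 51.8 CPM in WT replicates. Ezh2-deficient replicate 4 stood above the other libraries of its group but below all WT libraries (log2 fold change -0.41, SE 0.10, adjusted p = 0.0130). Mrpl4 (ENSMUSG00000003299; chr9:21002738-21008839), which lines the tunnel, was at 25.8, 29.3, 24.7 and 20.3 CPM against 35.7, 31.4, 45.3, 43.1 and 30.2 CPM in WT. The groups came close without touching, and the log2 fold change was -0.57 (SE 0.14, adjusted p = 0.0158). Mrpl23, the counterpart of another tunnel protein, had 1.74 ± 0.709 CPM in Ezh2-deficient cells and 1.66 ± 0.247 CPM in WT libraries, with no call (log2 fold change 0.07, adjusted p = 0.894) and a sign that turned in 6 of 24 alternative settings.

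The stalk, which recruits translation factors, held 4 tested genes, 2 of which fell, with a median of -0.36. Mrpl11 averaged 20.2 ± 1.28 CPM in Ezh2-deficient cells and 26.8 ± 3.27 CPM in WT libraries (log2 fold change -0.41, adjusted p = 0.0192), and WT replicate 2, at 21.3 CPM, lay within the Ezh2-deficient range. Mrpl12, the stalk protein that in human cells has also been reported to bind the mitochondrial RNA polymerase, averaged 34.4 ± 4.16 CPM against 47.6 ± 9.29 CPM (-0.47, adjusted p = 0.0291), again with overlap in 1 library of each group. The stalk base protein gene Mrpl10, among the highest of all members, was at 69.0 ± 4.54 CPM in Ezh2-deficient cells and 74.1 ± 4.39 CPM in WT libraries and did not pass (-0.10, adjusted p = 0.355), and Mrpl54 did not pass either (-0.30, adjusted p = 0.0805). In the central protuberance, which contacts the small subunit, 2 of 7 genes fell and the median was -0.15. Mrpl38 (ENSMUSG00000020775; chr11:116131817-116138868) was at 12.1, 11.0, 9.995 and 11.6 CPM in Ezh2-deficient cells and at 15.5, 15.7, 23.01, 20.95 and 12.7 CPM in WT replicates, without overlap. Its log2 fold change, -0.65 (SE 0.17, adjusted p = 0.0175), was the most negative in the large subunit, and its WT libraries were widely spread. Mrpl46 also fell (-0.28, adjusted p = 0.0488), whereas Mrpl48 had the most positive value of all members, at 24.6 ± 1.61 CPM against 22.5 ± 1.98 CPM (0.13, adjusted p = 0.359). Mrpl58, a peptidyl-tRNA hydrolase that is built into the ribosome and can release stalled chains, was at 28.9 ± 3.76 CPM in Ezh2-deficient cells and 30.7 ± 1.67 CPM in WT libraries (-0.09, adjusted p = 0.557).

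**Figure D4:**
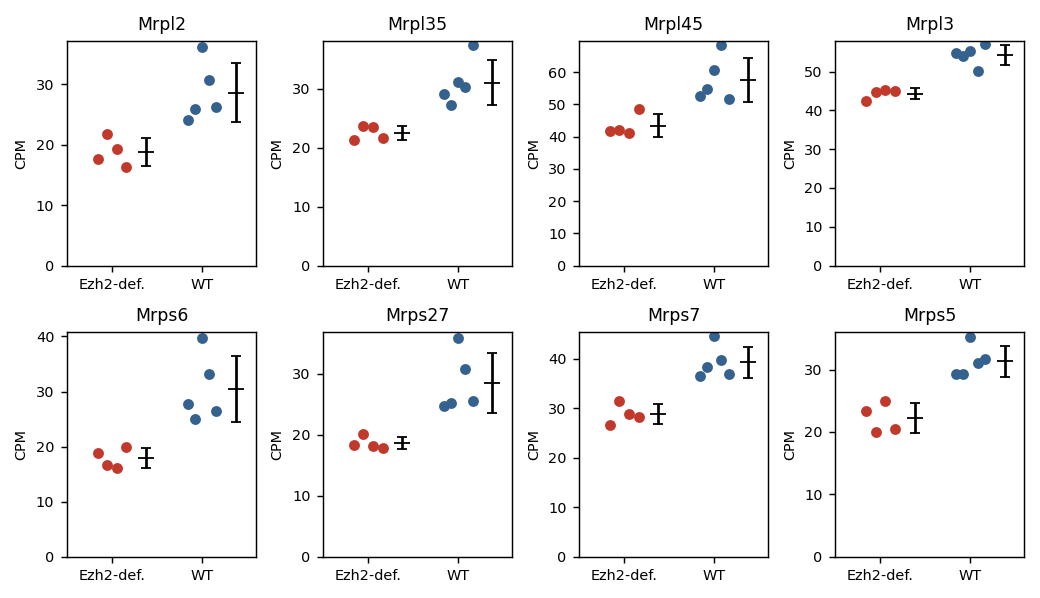
CPM (vertical axes, from 0) in each library for the 4 genes of each subunit with the smallest adjusted p. Points are libraries (Ezh2-deficient left, WT right) and bars are means ± SD (n = 4 and n = 5); in each panel the Ezh2-deficient points lie below the WT points.

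The other 8 large subunit genes that fell were assigned to none of these regions. Mrpl35 (ENSMUSG00000052962; chr6:71812997-71826969), the counterpart of a bacterial protein, was at 21.3, 23.7, 23.5 and 21.7 CPM in Ezh2-deficient cells and at 29.2, 27.2, 31.2, 30.3 and 37.4 CPM in WT replicates. The groups did not overlap (log2 fold change -0.46, SE 0.10, adjusted p = 0.00859). Mrpl15, Mrpl28 and Mrpl34, also of bacterial descent, had log2 fold changes of -0.29, -0.40 and -0.65 with adjusted p of 0.0300, 0.0495 and 0.0448. Mrpl41, Mrpl44, Mrpl49 and Mrpl50, which bacteria lack, had -0.48, -0.31, -0.30 and -0.27 with adjusted p of 0.0378, 0.0450, 0.0265 and 0.0484. Mrpl41 (19.8 ± 4.31 CPM against 27.6 ± 3.64 CPM in WT), Mrpl49 and Mrpl15 did not overlap between the groups, and Mrpl28, Mrpl34, Mrpl44 and Mrpl50 did. Sorted by their place in the mammalian structure, 9 of 29 large subunit genes with a bacterial counterpart fell, with a median of -0.24, and 7 of 20 without one, with a median of -0.25.

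**Figure D5:**
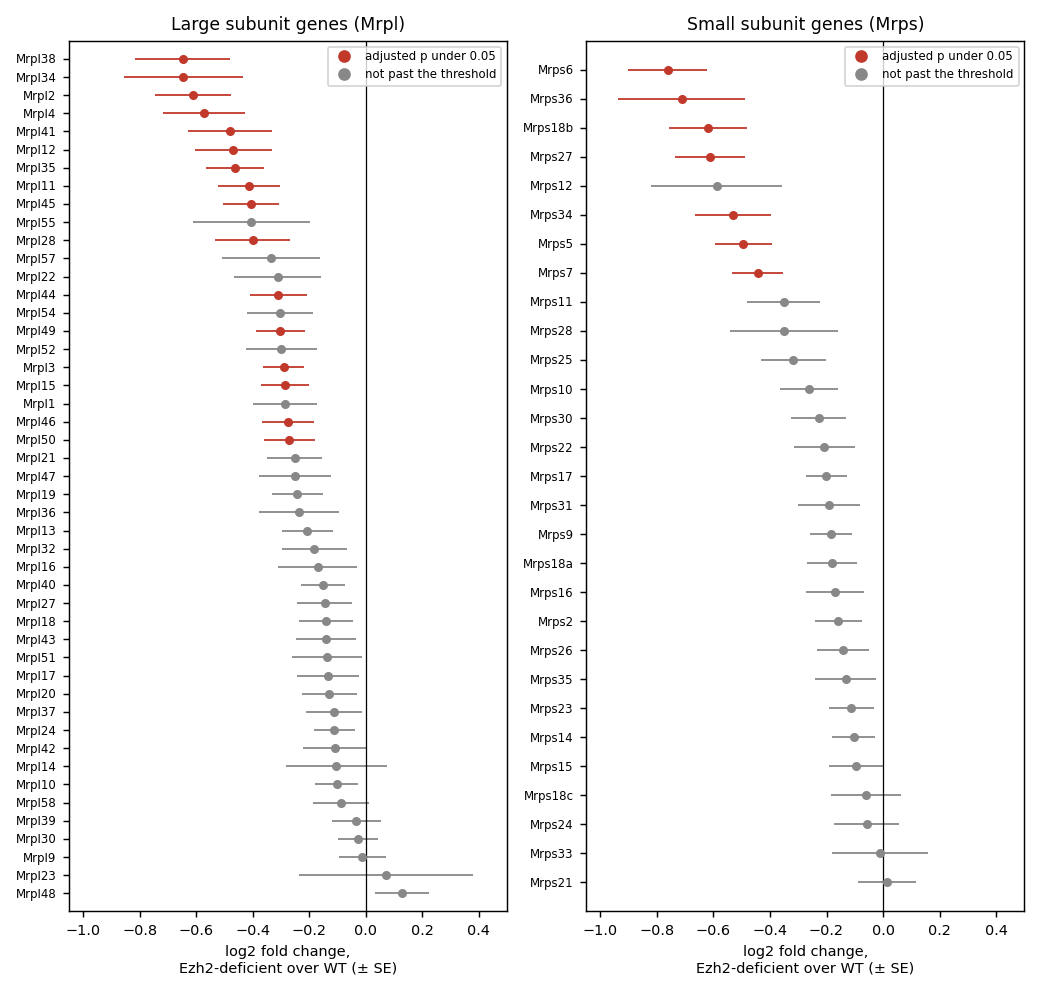
Log2 fold change, Ezh2-deficient over WT, ± SE (horizontal axis) for each tested member, large subunit left and small subunit right, ordered from the most negative down. Red marks an adjusted p under 0.05 in edgeR's quasi-likelihood test; the red points lie between -0.76 and -0.27, and 73 of the 76 points lie left of 0.

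Of the 29 small subunit genes, 7 (24.1%) fell, 28 were negative and the median was -0.20. Mrps6 (ENSMUSG00000039680; chr16:92058270-92112227), the counterpart of a bacterial protein of the platform, had the most negative value of all members. It was at 18.9, 16.6, 16.2 and 19.997 CPM in Ezh2-deficient replicates 1 to 4 and at 27.8, 25.1, 39.6, 33.2 and 26.4 CPM in WT replicates 1 to 5. The groups were well apart, WT replicate 3 was the highest, and the log2 fold change was -0.76 (SE 0.14, adjusted p = 0.00301), a 1.70-fold lower level. Gm49711 and Slc5a3, on the same strand, overlap 19.9% and 10.4% of the exon bases of Mrps6, so reads there are uncertain. Mrps27 (ENSMUSG00000041632; chr13:99344786-99415562), an RNA-binding pentatricopeptide repeat protein that bacteria lack, was at 18.4, 20.1, 18.2 and 17.9 CPM in Ezh2-deficient cells and at 24.8, 25.2, 36.0, 30.9 and 25.6 CPM in WT replicates. Its Ezh2-deficient libraries differed little from each other and lay below all WT libraries (-0.61, SE 0.12, adjusted p = 0.00476). On the other strand, 6430562O15Rik overlaps 24.2% of the exon bases of Mrps27.

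Mrps7 (ENSMUSG00000046756; chr11:115603925-115608036), a core protein of the head of the subunit, was at 26.7, 31.6, 28.9 and 28.3 CPM in Ezh2-deficient cells and at 36.6, 38.4, 44.6, 39.9 and 37.0 CPM in WT replicates. The groups did not overlap (-0.44, SE 0.09, adjusted p = 0.00486). Mrps5 (ENSMUSG00000027374; chr2:127587222-127606829), whose bacterial counterpart helps to keep decoding accurate, was at 23.4, 20.05, 25.02 and 20.5 CPM in Ezh2-deficient cells and at 29.3, 29.3, 35.3, 31.0 and 31.7 CPM in WT replicates, likewise without overlap (-0.49, SE 0.10, adjusted p = 0.00496). Mrps34 (16.8 ± 2.32 CPM against 24.2 ± 3.80 CPM in WT), which human cells need for a stable small subunit, had -0.53 (adjusted p = 0.0159), but 63.4% of its exon bases overlap Mapk8ip3 and 37.0% overlap Nme3, so its count is uncertain. The decoding centre gene Mrps12 had 10.2 ± 1.91 CPM in Ezh2-deficient cells and 15.3 ± 5.26 CPM in WT libraries and did not pass (-0.59, adjusted p = 0.0869). Mrps16, Mrps22 and Mrps10, of which the first 2 are mutated in human mitochondrial disease, had -0.17, -0.21 and -0.26 with adjusted p of 0.246, 0.186 and 0.0818, and Mrps25, which shares 69.8% of its exon bases with Nr2c2, had -0.32 (adjusted p = 0.0661).

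The Mrps18 genes are 3 paralogues of 1 bacterial protein, and their values differed. Mrps18b (ENSMUSG00000024436; chr17:35910379-35916389) was at 9.44, 9.20, 7.26 and 10.8 CPM in Ezh2-deficient cells and at 13.1, 12.3, 15.2, 15.3 and 14.8 CPM in WT replicates, without overlap, and fell (-0.62, SE 0.14, adjusted p = 0.00814); 30.5% of its exon bases are shared with the antisense gene Gm16279. Mrps18a, the product of which sits in the large subunit of the mammalian ribosome, had 35.3 ± 2.84 CPM against 40.1 ± 3.01 CPM in WT (-0.18, adjusted p = 0.155). Mrps18c, the copy at the bacterial position, had 33.3 ± 2.42 CPM against 34.7 ± 6.22 CPM in WT (-0.06, adjusted p = 0.758), and its sign turned in 3 of 24 alternative settings. The difference between the paralogues was not tested. Another gene with a small subunit name whose product sits in the large subunit, Mrps30, had -0.23 (adjusted p = 0.108). Mrps36, which despite its name belongs to the 2-oxoglutarate dehydrogenase complex of the citric acid cycle, was at 1.66, 3.11, 2.56 and 2.50 CPM in Ezh2-deficient cells and at 3.98, 3.61, 3.04, 4.71 and 4.83 CPM in WT replicates. It fell (-0.71, SE 0.23, adjusted p = 0.0413) with overlap of 1 library in each group, at the lowest level of any member called. Sorted by place in the structure, 16 of 49 large subunit genes fell with a median of -0.24, and 6 of 26 small subunit genes with a median of -0.20.

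Passing the test and lack of overlap mostly went together. Of the 23 members that fell, 16 had no overlap between the groups and 7 did, and Mrpl19, Mrps9 and Mrps17 had no overlap but did not pass, at -0.24, -0.18 and -0.20. Per kilobase of exon the highest large subunit genes were Mrpl18 (46.5 ± 6.01 CPM per kilobase in Ezh2-deficient, 51.3 ± 3.31 in WT), Mrpl10 (40.4 ± 2.66 and 43.4 ± 2.57) and Mrpl52 (30.5 ± 4.94 and 37.5 ± 5.13). The highest small subunit genes were Mrps21 (44.8 ± 3.80 CPM per kilobase in Ezh2-deficient, 44.4 ± 4.75 in WT), Mrps23 (35.3 ± 2.18 and 38.1 ± 2.44) and Mrps18c (31.0 ± 2.25 and 32.3 ± 5.79). None of these 6 passed the test. The lowest tested were Mrpl23 (0.357 ± 0.145 and 0.340 ± 0.0507), Mrps36 (1.93 ± 0.467 and 3.16 ± 0.589), Mrps10 (2.10 ± 0.211 and 2.51 ± 0.163), Mrps35 (2.84 ± 0.388 and 3.11 ± 0.248) and Mrpl48 (3.02 ± 0.197 and 2.76 ± 0.242). Mrpl53, with 1 count in the Ezh2-deficient and 6 counts in the WT libraries, was not tested, and 88.0% of its exon bases are shared with Gm42688. Across the 76 members, which share libraries, log2 fold change was set against level, the log2 of the average of the group mean CPM. Spearman's rho was 0.37, against -0.06 over 13590 genes.

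Shared sequence touches several of these counts. Exon bases overlapped those of another gene in 32 of the 77 members, by at least 25% of the exon bases in 7, and the strand setting of the counting is not given in the sources used here. Among the 45 tested members with no such overlap, 13 fell and the median was -0.21. Mrps11 and Mrpl46 overlap head to head by 173 bases; Mrps11 had -0.35 (adjusted p = 0.0686) and Mrpl46 -0.28, so reads of the shared stretch could belong to either. Pseudogene copies of at least 200 bases and 95% identity exist for 16 members, among them Mrps36, with 4 copies and an identity of up to 99.3%, and Mrps18b, with 1 copy. Those copies had at most 25 counts over all libraries. The members' median GC content was 49.8%, against 49.6% for all genes with a sequence, and log2 fold change and GC content had a Spearman rho of -0.30 over the 76 members and -0.28 over 13590 genes. With the GC trend of each library taken out, 28 members and 10.7% of all genes fell. Of the 23 members that fell without that step, 20 were among them, and Mrpl28, Mrpl44 and Mrpl46 were not.

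The nuclear genes that serve the mitochondrial ribosome had medians near those of the members. Of 5 ribosomal proteins with other names, 2 fell: Gadd45gip1, of the large subunit (13.5 ± 1.95 CPM in Ezh2-deficient, 21.4 ± 5.13 CPM in WT; -0.66, adjusted p = 0.0185), and Ptcd3, of the small subunit (43.0 ± 2.62 and 53.3 ± 3.62 CPM; -0.31, adjusted p = 0.0180). Of 27 genes for assembly and rRNA modification, 7 fell, with a median of -0.25. They included Nsun4, an rRNA methyltransferase (-0.48, adjusted p = 0.00855), Noa1, a GTPase (-0.46, adjusted p = 0.0123), and Rcc1l (-0.80, adjusted p = 0.0179). Nsun2 (-0.30, adjusted p = 0.0177), also on that list, methylates mainly transfer RNAs. Of 15 translation factors, 4 fell, with a median of -0.24: the elongation factors Gfm1 (-0.36, adjusted p = 0.00699) and Tsfm (-0.53, adjusted p = 0.0184), the mRNA-binding Lrpprc (-0.25, adjusted p = 0.0347) and Taco1, an activator of Cox1 translation (-0.48, adjusted p = 0.0414). Of 20 mitochondrial aminoacyl-tRNA synthetase genes, 3 fell, Sars2, Iars2 and Pars2 (-0.75, -0.29 and -0.46; adjusted p of 0.00931, 0.0111 and 0.0195), and the median was -0.24. All 4 lists are to be read against the 8.8% of genes called lower. Their counts moved with the libraries kept. The 7 assembly genes became 4 without Ezh2-deficient replicate 1, WT replicate 3 or WT replicate 4 (6.24%, 7.25% and 6.86% of all genes lower). The 4 translation factors became 2 without Ezh2-deficient replicate 1, Ezh2-deficient replicate 3 or WT replicate 1 (6.24%, 5.72% and 8.92% of all genes lower). The 3 synthetase genes became 8 without Ezh2-deficient replicate 2, where 10.66% of all genes were lower.

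The genes that copy and transcribe mitochondrial DNA did not share that median. Of 13, 3 fell and 0 rose in edgeR, with 8.8% of all genes lower and 13.1% higher, and the median was -0.06. In DESeq2 5 were lower and 2 higher, where 1868 and 2092 of all 13685 genes were. Those that fell in edgeR were the helicase Twnk (14.4 ± 1.43 CPM in Ezh2-deficient, 23.2 ± 3.71 CPM in WT; -0.69, adjusted p = 0.00347), the topoisomerase Top1mt (1.71 ± 0.422 and 4.29 ± 1.27 CPM; -1.32, adjusted p = 0.00432) and the polymerase Polg (149 ± 8.92 and 183 ± 11.8 CPM; -0.29, adjusted p = 0.0152). Twnk shares 507 bases of exon with the member Mrpl43. The products of the organelle's own genome lay on the other side of 0 in edgeR with all libraries and no covariate. With the GC trend of each library taken out, the messenger RNAs mt-Nd4 and mt-Nd5 were slightly below 0. Of 13 mitochondrially encoded messenger RNAs, 7 had counts, 0 passed in edgeR with all libraries and no covariate (2 at an unadjusted p under 0.05, 1 higher in DESeq2, 0 in limma-voom), all 7 were positive and the median was 0.20; the other 6 were listed at 0 in every library. Of the 7, mt-Cytb was called higher in edgeR without WT replicate 5 (adjusted p = 0.0244) and with the replicate number as a block (adjusted p = 0.0495). Their sum was 11458, 11804, 12386 and 13057 CPM in Ezh2-deficient replicates 1 to 4 and 11534, 10991, 10126, 9740.1 and 12492 CPM in WT replicates 1 to 5. The groups overlapped, through WT replicates 1 and 5. The ribosomal RNAs of the particle, mt-Rnr1 and mt-Rnr2, had 0.30 and 0.55 with adjusted p of 0.204 and 0.0881, and neither passed in edgeR with all libraries and no covariate or in limma-voom. In edgeR without WT replicate 1, mt-Rnr2 was called higher (adjusted p = 0.0354), as it was in DESeq2 (adjusted p = 0.0315). With the hypoxia score as a covariate in edgeR, mt-Rnr1 and mt-Rnr2 were both called higher (adjusted p of 0.0130 and 0.0194). Their sum was 959 ± 247 CPM in Ezh2-deficient cells and 698 ± 152 CPM in WT libraries, and the poly(A) selection of the library kit limits what such values say of ribosomal RNA.

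Of 11 tested regulators of mitochondrial biogenesis, 2 fell and 1 rose, against 8.8% and 13.1% of all genes. Without WT replicate 5, 4 fell (10.5% of all genes lower), and within the low-score libraries 0 did (1.06%). Over all settings 0 to 4 were called lower and 1 was called higher in each. Of all genes, 1.06% to 13.6% were called lower over those settings, and 424 to 2153 genes were called higher. Max, the partner of Myc at the E-box, averaged 91.9 ± 5.26 CPM in Ezh2-deficient cells and 124 ± 16.3 CPM in WT libraries (-0.43, adjusted p = 0.00923), and Pprc1, a coactivator of NRF1, 55.0 ± 9.63 and 79.6 ± 13.5 CPM (-0.53, adjusted p = 0.0193). Mycn, a Myc relative with a low level in WT cells, averaged 12.3 ± 1.79 CPM in Ezh2-deficient cells and 2.91 ± 1.20 CPM in WT libraries, a 4.20-fold higher level without overlap (2.07, adjusted p = 0.000502). Myc itself averaged 143 ± 12.3 and 187 ± 36.9 CPM and did not pass (-0.38, adjusted p = 0.0599; it passed in DESeq2, adjusted p = 0.0267).

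All 23 members that fell were negative in each of the 24 alternative settings. Those settings reuse the same libraries and the 23 were picked as lower, so the kept sign is a description and no separate support. The calls varied more. Mrpl2, Mrpl35, Mrps5, Mrps6, Mrps7 and Mrps27 passed in 23 of the 24 settings and missed the threshold only among the low-score libraries, where 2 were set against 2. Mrpl28 and Mrpl44 passed in 10, Mrpl46, Mrpl50 and Mrps36 in 11, and Mrpl34 in 12.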

How the data were processed

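The authors deposited whole-number counts per gene for the 9 libraries, not normalized, with 43432 Ensembl identifiers. The submitters' processing notes name STAR and the build GRCm38; libraries were made with a stranded, poly(A)-selecting mRNA kit, per the labels. How reads were counted, with which annotation and on which strand, is not stated in these sources. The series' design text calls the samples biological replicates, and no sharing of mice or cultures is stated, so p-values measure the spread between these samples. Libraries of a group differed by more than sampling noise (chi-square per degree of freedom at least 23.6), and each counted as 1 replicate.

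Symbols, positions and exons came from GENCODE M21 on GRCm38, where 42548 of the identifiers were found. The filter on low counts (edgeR, by group) kept 13685 of 22839 genes that had any count. Groups were compared with edgeR 4.0.16 (R 4.3.3; TMM scaling, robust quasi-likelihood F-test, Benjamini-Hochberg adjustment over all tested genes, threshold 0.05); the common biological coefficient of variation was 0.206. CPM values use library sizes with TMM factors, and ± is the SD within a group (n = 4 and n = 5). The test was tried on simulated counts first. The SE of a log2 fold change was taken from the F statistic. The hypoxia score is the mean over 22 genes of log2 CPM standardized across libraries. Places in the ribosome, bacterial counterparts and regions were assigned by hand from textbook structures, with Mrps18a and Mrps18b counted as having no bacterial counterpart.

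The members, the gene lists and the tests were chosen with earlier results of these data known. Named members were, in each subunit, the 8 with the smallest adjusted p, the 3 highest and 3 lowest per kilobase of exon, the extremes of fold change, the untested member and 15 fixed genes; of each list up to 4 genes were named. Mrpl15, Mrpl16, Mrpl19, Mrpl27, Mrpl28, Mrpl34, Mrpl46, Mrpl50, Mrpl54, Mrps9, Mrps11, Mrps17 and mt-Cytb were named after their values were seen. Of 16 translation factors listed, 15 were matched by name. Alternatives were other scalings (relative log expression, upper quartile, total count), other filters (none, or at least 1 CPM in 4 libraries), other tools (DESeq2 1.42.0, voom in limma 3.58.1), the replicate number as a block, the hypoxia score as a covariate and each library left out. Chosen after seeing the data were the sets without the library with the most Cd8a of each group, without WT replicates 3 and 4, and with high or low hypoxia scores only, and the removal of each library's GC trend (lowess), alone or with the block.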

Additional observations from a re-analysis of the deposited data

Results flagged for a closer look

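The counts of 1 library stood apart from the rest of its group for 2 named genes, by the gap to the nearest library over the range of the group (Dixon's test). Mrpl45 was at 48.64 CPM in Ezh2-deficient replicate 4, above the other libraries of that group and below all WT libraries. Mrps23, which did not pass the test, was at 52.86 CPM in WT replicate 2, below the other WT libraries and within the Ezh2-deficient range. Among 104 groups of values examined in this way, chance flags about 1 in 20, more than were found.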

How the results depend on the processing

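In all 24 alternatives 0 members rose in edgeR's test, in DESeq2 or in limma-voom, and the subunit medians stayed between -0.18 and -0.33 (large) and -0.19 and -0.34 (small). The count of members called was less stable. Leaving out each library in turn gave 15 to 24 members (9 to 16 large, 6 to 8 small), all lower, with medians of -0.30 to -0.23 (large) and -0.25 to -0.20 (small). Of all tested genes, 1972 to 3168 were then called in either direction and 802 to 1477 were called lower. DESeq2 called 13 small subunit genes lower, as against 7. Without the library with the most Cd8a in each group, 9 members (4 large) were called. High-score libraries alone gave 8 members (4 large, 4 small) and 1764 genes in either direction, 697 of them lower. Low-score libraries alone gave 0 members (0 large, 0 small) and 570 genes, 146 of them lower, with a small subunit median of -0.34. Without WT replicates 3 and 4 there were 8 members (3 large) and 1851 genes, 642 of them lower. With the GC trend removed, 12 small subunit genes were called. Where the cause is not the smaller number of libraries, the cause was not tested.

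With the replicate number as a replicate block, 14 members (8 large) were called lower, against 23 without it. The share of all genes called lower was 8.155% with the block and 8.8% without it. The sources do not say that these numbers pair samples. The deviations of same-numbered libraries correlated by 0.141, -0.071, 0.102 and 0.175, and no Ezh2-deficient library correlated best with its own number. Correlations this low cannot show whether samples were paired. With the GC trend removed and the replicate block, the small subunit median was -0.30.

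A sign turned only for genes with no call in edgeR with all libraries and no covariate, though mt-Nd4 was called higher in DESeq2. Mrpl23 (0.07) had -0.01 in limma-voom, -0.16 to 0.29 over left-out libraries, -0.33 in the low-score libraries and -0.045 without WT replicates 3 and 4. Mrps18c (-0.06) had 0.049 with the block, -0.13 to 0.032 over left-out libraries and 0.11 in the high-score libraries. Mrps21 (0.01) had -0.013 with total-count scaling, -0.0036 with no filter, -0.0060 with the hypoxia score as covariate, -0.051 to 0.045 over left-out libraries, -0.047 without the libraries with the most Cd8a, -0.037 in the high-score libraries and -0.094 without WT replicates 3 and 4. mt-Nd4 and mt-Nd5 had -0.019 and -0.028 with the GC trend removed, and -0.024 and -0.048 with the block as well. Over the named genes and alternatives, 1681 values kept their direction and side of the threshold, 201 lost the call, 61 gained one and 25 turned sign. Over the alternatives, 1 to 10 assembly genes, 0 to 7 translation factors, 0 to 8 synthetase genes and 0 to 5 genes of mitochondrial DNA upkeep were called lower, and 0 to 2 of those last were called higher. The share of all genes called lower ran from 1.06% to 13.6% over the same alternatives, and 424 to 2153 genes were called higher. The depth behind most members was ample; for Mrpl53 it allowed no test.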
